A study of Mus musculus with 51 samples.

Results

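The 10 groups of mouse mRNA-seq libraries had Dmrt1 intact, lost or altered. Prm1, Prm2, Prm3, Tnp1 and Tnp2, the protamine and transition protein genes, were followed through all 10. They were chosen by gene symbol, and each symbol matched 1 row, so that 5 of the 55401 genes in the count table are described. At P28 the groups were Dmrt1-/- XY gonads, Dmrt1R111G/+ XY gonads, Dmrt1+/- testes and wild-type (Dmrt1+/+) testes. At P3 they were Dmrt1-/-, Dmrt1R111G/-, Dmrt1R111G/+ and Dmrt1+/- gonads. The remaining groups were Sertoli cells isolated at P7 from mice that carried CAG-Stopflox-tdTomato and Dhh-Cre, either with Dmrt1 f/f (Dmrt1 null) or with Dmrt1 f/+ (control). The controls are titled +/+ in the labels, but their genotype lists 1 floxed allele beside the same Cre, and they form 1 control group here. Each group had 3 libraries, and all mice were of a mixed 129Sv and C57Bl/6J background. The R111G allele, which exchanges an arginine of the DNA-binding DM domain of DMRT1 for glycine, came from 1 edited founder. Whole gonads were used at P3 and P28, whereas the P7 cells were the flow-through of a magnetic column that retained germ cells, with Dhh-Cre driving deletion in Sertoli cells.

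During spermiogenesis the nucleosomes of the haploid spermatid are dismantled. Transition proteins, small basic proteins encoded by Tnp1 and Tnp2, occupy the DNA for a short time and are then replaced by the arginine-rich protamines 1 and 2, which pack the sperm nucleus. The mRNAs are transcribed in round spermatids, stored as ribonucleoproteins and translated later in elongating spermatids, so that in a testis they are a readout of germ cells that have passed meiosis. Prm3 lies between Prm2 and Tnp2 in the mouse and encodes an acidic protein of the spermatid cytoplasm rather than a nuclear packing protein. DMRT1 itself is made in Sertoli cells and in premeiotic germ cells.

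Library totals ran between 5043838 and 12792811 counts with a median of 8776697. The labels do not say whether libraries came from separate animals, so the p-values measure the spread between these samples only. Dmrt1 mRNA, the targeted gene, was nearly absent from Dmrt1-/- libraries. It had 2 to 4 counts per library in P28 Dmrt1-/- gonads and averaged 70.7 ± 17.5 CPM in Dmrt1R111G/+ gonads, 40.7 ± 20.0 CPM in Dmrt1+/- testes and 32.5 ± 3.23 CPM in wild-type testes (SD, n = 3 each), so that the Dmrt1+/- mean was not below wild-type. At P3 it had 17 to 31 counts per library in Dmrt1-/- gonads (2.96 ± 0.720 CPM) and averaged 66.1 ± 12.2 CPM in Dmrt1R111G/-, 136 ± 24.3 CPM in Dmrt1R111G/+ and 71.8 ± 16.2 CPM in Dmrt1+/- gonads. At P7 it averaged 27.8 ± 7.94 CPM in null cells and 210 ± 59.5 CPM in control cells. CPM are counts relative to the library total, given per 1000000 counts. One library stood apart at P28: in replicate 3 of the Dmrt1+/- testes the 17 markers of round and elongating spermatids summed to 3377 CPM, against 7209 to 8288 CPM in the other Dmrt1+/- and wild-type testes. Fold changes of the 5 genes against Dmrt1+/- testes are given with and without it.

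Of the 5 genes, 4 form a cluster of 17904 bases on chromosome 16 (GRCm38), all on the minus strand. Prm1 occupies 10796326 to 10805839, Prm2 10791380 to 10796134, Prm3 10790505 to 10790914 and Tnp2 10787936 to 10788660 in the GENCODE M21 annotation. Tnp1 lies apart, on chromosome 1 at 73015074 to 73015909, also on the minus strand. Prm3 is a single exon, and Tnp1 and Tnp2 have 2 exons each. The 120 bases before each RefSeq start site are shown because the 5 mRNAs moved together, and the letters let their start regions be compared. All 5 were found in the RefSeq promoter table of GRCm38.p6, and they are printed 5′ to 3′ on the strand of the gene. Capitals mark TATAA on the sense strand and TGANNTCA on either strand. TGANNTCA is a relaxed form of TGACGTCA, the cAMP-response element bound by the spermatid activator CREM.
Prm1, chr16:10796824-10796943: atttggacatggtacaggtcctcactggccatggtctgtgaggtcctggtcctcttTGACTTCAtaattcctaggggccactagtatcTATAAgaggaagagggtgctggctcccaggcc
Prm2, chr16:10792106-10792225: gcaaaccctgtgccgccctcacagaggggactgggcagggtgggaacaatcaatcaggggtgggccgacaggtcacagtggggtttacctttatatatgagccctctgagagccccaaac
Prm3, chr16:10790915-10791034: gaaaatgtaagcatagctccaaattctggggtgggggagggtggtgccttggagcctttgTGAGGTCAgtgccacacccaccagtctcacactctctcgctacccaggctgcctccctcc
Tnp1, chr1:73015900-73016019: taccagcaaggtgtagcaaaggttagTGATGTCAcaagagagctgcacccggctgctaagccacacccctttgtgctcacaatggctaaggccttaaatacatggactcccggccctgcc
Tnp2, chr16:10788656-10788775: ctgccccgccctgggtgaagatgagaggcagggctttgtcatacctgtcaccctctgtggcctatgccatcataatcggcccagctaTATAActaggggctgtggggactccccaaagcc

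Counting back from the start site, Prm1 held TGACTTCA at -64 to -57 and TATAA at -32 to -28. Tnp2 held TATAA at -33 to -29 and no TGANNTCA, while Prm3 held TGAGGTCA at -60 to -53 and Tnp1 held TGATGTCA at -94 to -87, both without TATAA. Prm2 had neither string. Thus 3 of the 5 start regions held TGANNTCA, which was present in 7.14% of 32851 mouse promoters of the same length, and 2 held TATAA, present in 8.53%. None held the full TGACGTCA (1.24% of promoters), CCAAT (21.3%) or ACATTGT (1.12%), the core of the site that DMRT1 binds, on either strand. These matches describe the letters in a short window and were not tested as binding sites.

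In wild-type P28 testes the 5 genes were among the most abundant mRNAs, with the exception of Prm3. By CPM, Prm1 ranked 11th, Prm2 14th, Tnp2 16th and Tnp1 17th of the 55401 genes, and Prm3 ranked 1293rd. Levels of different genes are comparable only per length. Per kilobase of annotated exon the wild-type means were 5309 ± 1416 CPM for Tnp1, 5097 ± 1095 CPM for Prm1, 4292 ± 440 CPM for Tnp2, 3148 ± 252 CPM for Prm2 and 379 ± 54.1 CPM for Prm3 (SD, n = 3). Tnp1, Prm1 and Tnp2 therefore overlapped in their spread, and Prm3 lay well under the others. The exon lengths include long annotated isoforms of Prm1 and Prm2, which lower the per-length values of those genes.

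The first question was how far these mRNAs fall when Dmrt1 is absent and XY gonads transdifferentiate. All 5 were nearly absent from P28 Dmrt1-/- gonads. Prm1, encoding protamine 1, had 7.63, 6.35 and 4.64 CPM in Dmrt1-/- gonads, against 3624, 2648 and 2459 CPM in wild-type testes. Prm2, whose product is made as a longer precursor and then cleaved, had 6.17, 4.89 and 4.55 CPM in Dmrt1-/- gonads, against 3014, 2570 and 2860 CPM in wild-type testes. Every Dmrt1-/- library was thus lower by more than 2 orders of magnitude than every wild-type library for both protamines.

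The transition proteins behaved the same way. Tnp1 had 4.60, 6.35 and 5.08 CPM in Dmrt1-/- gonads, against 2973, 1742 and 2245 CPM in wild-type testes. Tnp2 had 4.83, 4.79 and 3.33 CPM in Dmrt1-/- gonads, against 2640, 2158 and 2336 CPM in wild-type testes. Prm3 was close to the limit of detection, with 0.112, 0.208 and 0.263 CPM in Dmrt1-/- gonads, or 1 to 3 counts per library, against 159, 131 and 175 CPM in wild-type testes. No library of one genotype overlapped with the other for any of the 5 genes, and 43.3% of all genes tested were lower in Dmrt1-/- gonads without overlap.

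In edgeR's quasi-likelihood test, where a call needed more than a 2-fold change and an adjusted p (Benjamini-Hochberg) under 0.05, 5 of 5 genes were lower in Dmrt1-/- gonads than in wild-type testes. That call applied to 40.5% of the 20952 genes tested. The log2 fold changes were -9.19 ± 0.69 for Prm1 (SE, edgeR adjusted p = 5.63e-08), -9.39 ± 0.56 for Prm2 (1.05e-08), -9.83 ± 0.61 for Prm3 (1.28e-08), -9.07 ± 0.76 for Tnp1 (1.64e-07) and -9.42 ± 0.55 for Tnp2 (8.93e-09). The median over the 5 genes was -9.39, against -0.31 over all genes tested. The value for Prm3 rests on 6 counts in the 3 Dmrt1-/- libraries together.

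Against Dmrt1+/- testes, also used as a comparison group in the study, 5 of 5 genes were again lower in Dmrt1-/- gonads, where 38.7% of all genes were called lower. Log2 fold changes were -8.97 for Prm1, -8.88 for Prm2, -9.47 for Prm3, -8.77 for Tnp1 and -8.93 for Tnp2, with edgeR adjusted p between 1.60e-08 and 2.65e-07. All 5 were also called without Dmrt1+/- replicate 3, at -9.41 for Prm1, -9.29 for Prm2, -9.83 for Prm3, -9.25 for Tnp1 and -9.32 for Tnp2. The Dmrt1-/- libraries are the same in both comparisons, so they are not independent of each other. In bulk tissue, fewer spermatids and less of each mRNA per spermatid cannot be told apart, here and in every comparison of gonads.

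**Figure D1:**
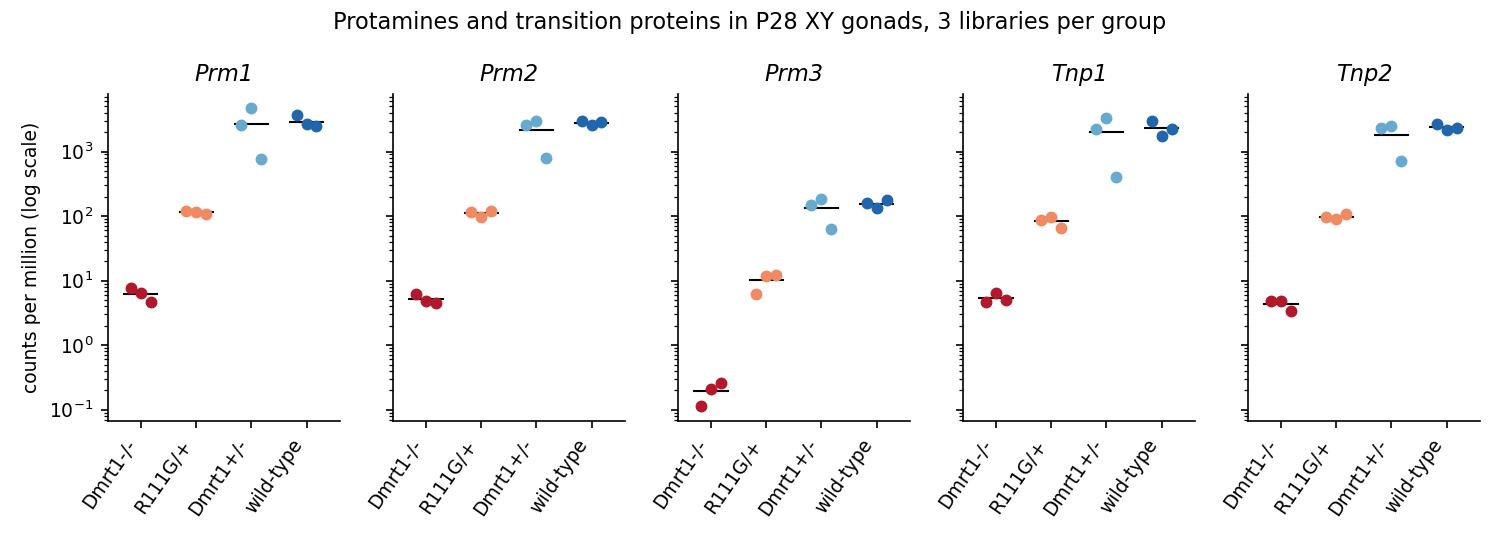
Level of Prm1, Prm2, Prm3, Tnp1 and Tnp2 in P28 XY gonads, in CPM on a log axis; points are libraries, 3 per group, and bars are group means. In each panel the groups step up without overlap, with Dmrt1-/- gonads lowest and Dmrt1R111G/+ gonads next, while Dmrt1+/- and wild-type testes overlap and 1 Dmrt1+/- library lies low.

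The R111G allele was studied because 1 copy beside a wild-type allele has a dominant effect on the testis. In P28 Dmrt1R111G/+ gonads the 5 mRNAs were low but clearly present. Prm1 had 119, 115 and 109 CPM in Dmrt1R111G/+ gonads, against 2598, 4662 and 757 CPM in Dmrt1+/- testes. Prm2 had 114, 96.1 and 119 CPM in Dmrt1R111G/+ gonads, against 2578, 3014 and 798 CPM in Dmrt1+/- testes. Both protamines were lower in every Dmrt1R111G/+ library than in the low Dmrt1+/- replicate 3.

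The same held for the transition proteins and for Prm3. Tnp1 had 85.4, 98.3 and 65.0 CPM in Dmrt1R111G/+ gonads, against 2256, 3356 and 409 CPM in Dmrt1+/- testes. Tnp2 had 95.9, 90.1 and 107 CPM in Dmrt1R111G/+ gonads, against 2290, 2444 and 722 CPM in Dmrt1+/- testes. Prm3 had 6.20, 11.9 and 12.1 CPM in Dmrt1R111G/+ gonads, against 146, 185 and 62.9 CPM in Dmrt1+/- testes. None of the 5 genes overlapped between these groups, and 30.1% of all genes were lower in Dmrt1R111G/+ gonads without overlap.

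All 5 genes were called lower in Dmrt1R111G/+ gonads than in Dmrt1+/- testes, a call made for 28.1% of all genes. The log2 fold changes were -4.90 ± 0.56 for Prm1 (SE, edgeR adjusted p = 3.67e-05), -4.62 ± 0.45 for Prm2 (2.36e-05), -4.03 ± 0.40 for Prm3 (2.36e-05), -4.95 ± 0.62 for Tnp1 (5.92e-05) and -4.56 ± 0.43 for Tnp2 (2.36e-05). Against wild-type testes, 5 of 5 were called lower among 34.1% of all genes, with log2 fold changes of -5.12 for Prm1, -5.12 for Prm2, -4.39 for Prm3, -5.25 for Tnp1 and -5.05 for Tnp2 (edgeR adjusted p between 4.56e-06 and 1.78e-05). Prm3 was the least reduced in both comparisons. Without Dmrt1+/- replicate 3 the differences from Dmrt1+/- testes were somewhat larger, at -5.36 for Prm1, -5.04 for Prm2, -4.41 for Prm3, -5.45 for Tnp1 and -4.97 for Tnp2.

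Set directly against Dmrt1-/- gonads, 5 of 5 genes were higher in Dmrt1R111G/+ gonads, a call made for 27.6% of all genes. The log2 fold changes were 4.07 for Prm1, 4.27 for Prm2, 5.44 for Prm3, 3.82 for Tnp1 and 4.37 for Tnp2, with edgeR adjusted p between 4.31e-06 and 0.000208. As a share of the wild-type mean, Dmrt1R111G/+ gonads retained 3.92% of Prm1, 3.91% of Prm2, 6.48% of Prm3, 3.57% of Tnp1 and 4.10% of Tnp2, while Dmrt1-/- gonads retained 0.125% to 0.230%. These 3 comparisons share the Dmrt1R111G/+ libraries.

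**Figure D2:**
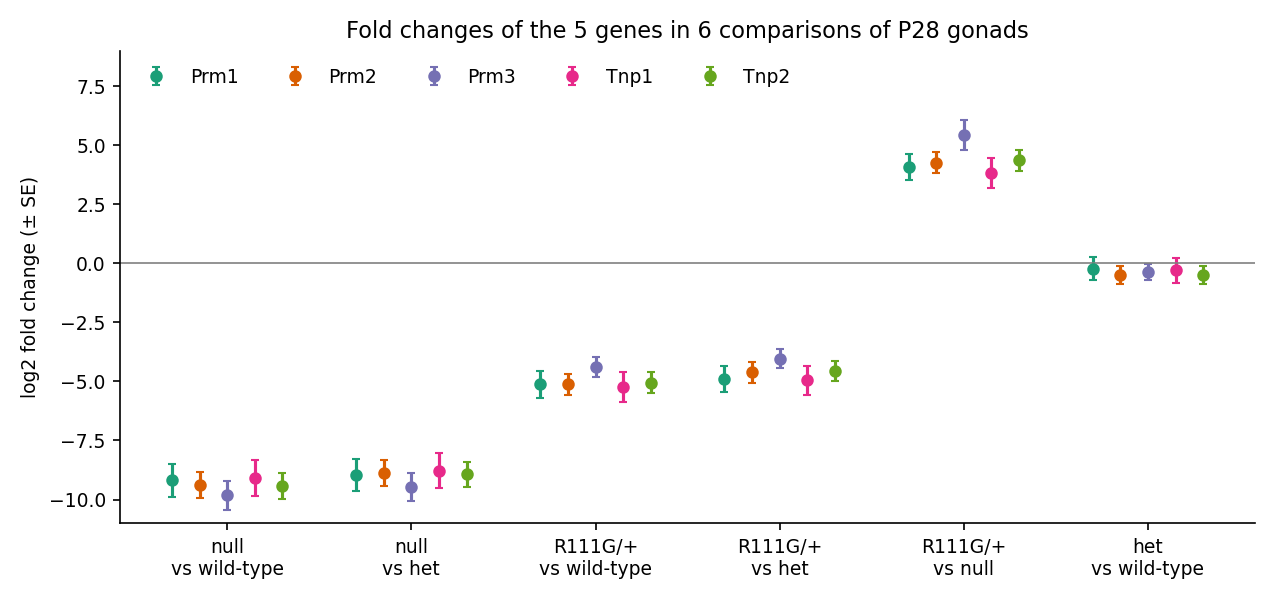
Log2 fold change of each gene with its standard error in 6 comparisons of P28 gonads, from edgeR. The 5 genes lie near -9 for Dmrt1-/- gonads against wild-type or Dmrt1+/- testes, near -5 for Dmrt1R111G/+ gonads against either, near 4 to 5 for Dmrt1R111G/+ against Dmrt1-/- gonads, and near 0 for Dmrt1+/- against wild-type testes.

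Loss of 1 copy of Dmrt1 gave no call. Of the 5 genes, 0 differed between Dmrt1+/- and wild-type testes by edgeR, 0 had an unadjusted p under 0.05 and 0 were called by DESeq2. Over all genes edgeR called 0% of those tested, with 3769 at an unadjusted p under 0.05, and DESeq2 called 33. The log2 fold changes were -0.22 ± 0.47 for Prm1 (SE, edgeR adjusted p = 0.791), -0.51 ± 0.38 for Prm2 (0.444), -0.35 ± 0.34 for Prm3 (0.543), -0.30 ± 0.53 for Tnp1 (0.744) and -0.49 ± 0.37 for Tnp2 (0.441).

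Replicate 3 of the Dmrt1+/- testes set the signs of Prm1, Prm3 and Tnp1. Without it, the log2 fold change became 0.24 for Prm1, 0.01 for Prm3, 0.20 for Tnp1, and -0.09 for both Prm2 and Tnp2. The Dmrt1+/- means kept a wide spread, as for Prm1 with 2672 ± 1954 CPM, against 2910 ± 625 CPM in wild-type testes (SD, n = 3 each). With such errors a moderate difference in either direction could not be detected.

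The 5 mRNAs together took a substantial part of a testis library. Their summed share of all counts was 0.00213 ± 0.000297% in Dmrt1-/- gonads, 0.0415 ± 0.000557% in Dmrt1R111G/+ gonads, 0.876 ± 0.554% in Dmrt1+/- testes and 1.06 ± 0.164% in wild-type testes (SD, n = 3 each). This measure needs no scaling between libraries. Groups did not overlap in the 5 comparisons that involve Dmrt1-/- or Dmrt1R111G/+ gonads, and each reached p = 0.1 in the two-sided exact permutation test, the smallest value that 3 libraries against 3 allow (adjusted p = 0.12 over 6 comparisons). The share of Dmrt1+/- testes differed from that of wild-type testes by -0.55 on the log2 scale (exact p = 0.8), and by 0.15 without Dmrt1+/- replicate 3.

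Markers of haploid germ cells, set beside the 5 genes, moved with them. Of 17 markers of round and elongating spermatids, the median level in Dmrt1-/- gonads was 0.212% of wild-type, within the 0.125% to 0.230% of the 5 genes, and the range was 0.133% to 3.96%. The highest of them was Odf2, a sperm tail gene that also serves the centrosome of other cells. In Dmrt1R111G/+ gonads the 17 markers had a median of 8.36% (3.53% to 20.5%), against a median of 3.92% for the 5 genes. Round spermatid markers, with a median of 10.5% (6.50% to 13.0%), lay above the 5 genes, the nearest being Tssk2, a spermatid kinase at 6.50%, beside Prm3 at 6.48%. Elongating spermatid markers had a median of 5.57% (3.53% to 20.5%). The tail protein gene Akap4 was at 5.57%, Cabs1 at 4.32% and Smcp, a mitochondrial capsule gene, at 5.33%. In the same list Odf2, at 16.7%, and Tsnaxip1, at 20.5%, lay above every round spermatid marker.

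Earlier germ cell stages kept more in Dmrt1R111G/+ gonads. Among 7 spermatocyte markers the median in Dmrt1R111G/+ gonads was 22.4% of wild-type (9.85% to 109%), with the synaptonemal complex gene Sycp1 at 78.8%, the lactate dehydrogenase gene Ldhc at 22.2% and the sperm glycolytic gene Pgk2 at 9.85%. That median was the value of Ybx2, which is also in the list of transcription and storage genes below. The list was split, with Sycp1, Sycp3 and Hormad1 at 78.8% to 109% and the other genes at 9.85% to 22.4%. Spermatogonia markers had a median of 137% but spread between 44.2% for Ddx4 and 272% for Kit. In Dmrt1+/- testes the same list had a median of 151% of wild-type. By edgeR its median log2 fold change in Dmrt1R111G/+ gonads was 0.0055 against wild-type and -0.44 against Dmrt1+/- testes. Somatic lists were also above wild-type in Dmrt1R111G/+ gonads, with medians of 230% for Sertoli, 313% for Leydig and 611% for macrophage markers. The percentages therefore do not show that spermatogonial mRNA was raised. In Dmrt1-/- gonads the spermatocyte markers were at 0.177% to 0.628% of wild-type, and the spermatogonia markers had a median of 10.4% (0.276% for Ddx4 to 579% for Kit, which somatic cells of the gonad also express). The median share retained in Dmrt1R111G/+ gonads was thus lower for lists of later stages, although single genes departed from this order. This is a description of lists and was not tested. What part a missing stage has in the level of the 5 genes was not tested either.

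**Figure D3:**
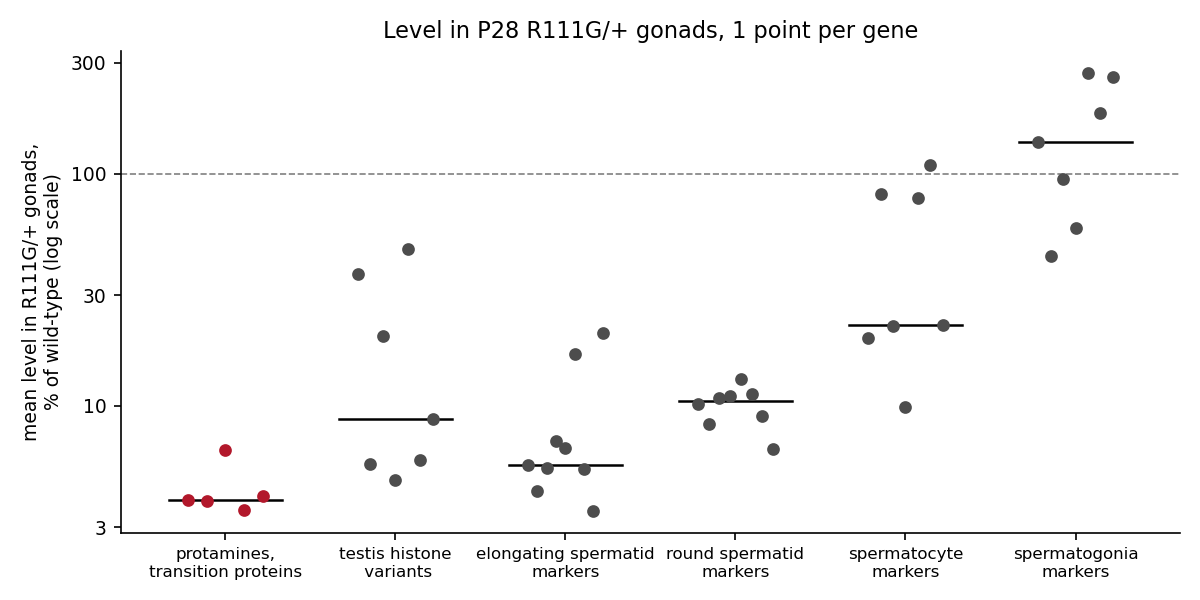
Mean level in P28 Dmrt1R111G/+ gonads as a percentage of the wild-type mean, on a log axis; 1 point per gene, bars are list medians and the dashed line marks the wild-type level. The 5 protamine and transition protein genes lie at 3.57% to 6.48%, near the median of the elongating spermatid markers (5.57%, range 3.53% to 20.5%). They lie under the round spermatid (median 10.5%) and spermatocyte markers (22.4%).

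The replicates of the Dmrt1R111G/+ group differed more in these markers than in the 5 genes. The 5 genes summed to 421, 411 and 411 CPM in replicates 1 to 3, whereas the 17 spermatid markers summed to 395, 688 and 899 CPM in the same libraries. Their quotient was 0.458 to 1.07 in Dmrt1R111G/+ gonads and 0.245 to 0.379 in Dmrt1-/- gonads, against 0.814 to 1.85 in Dmrt1+/- testes and 1.15 to 1.57 in wild-type testes. The separation of Dmrt1-/- gonads rested on Odf2, which at 49.7 CPM made up most of the marker sum there. With the other 16 markers the quotient was 0.686 to 1.56 in Dmrt1R111G/+ gonads and 1.13 to 1.52 in Dmrt1-/- gonads, against 1.02 to 2.11 in Dmrt1+/- testes and 1.39 to 1.82 in wild-type testes, and all groups overlapped with wild-type. Dmrt1R111G/+ gonads overlapped with wild-type through replicate 1 alone, with replicates 2 and 3 at 0.854 and 0.686. The choice to leave out Odf2 was made after seeing the data.

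Other cell types also shifted at P28. Granulosa markers summed to 342 to 568 CPM in Dmrt1-/- gonads and 13.8 to 18.6 CPM in Dmrt1R111G/+ gonads, against 6.10 to 10.5 CPM in Dmrt1+/- testes and 2.91 to 4.68 CPM in wild-type testes. The granulosa genes did not move together in Dmrt1R111G/+ gonads, where 2 of 5 were called higher against Dmrt1+/- testes. Foxl2 averaged 0.309 CPM in Dmrt1R111G/+ gonads against 0.423 CPM in Dmrt1+/- testes, and Nr5a2 averaged 2.74 against 3.25 CPM. Esr2, Fst and Hsd17b1 had higher means in Dmrt1R111G/+ gonads, as for Esr2 with 3.77 against 0.235 CPM. Macrophage markers summed to 403 to 526 CPM in Dmrt1-/- gonads and 419 to 1017 CPM in Dmrt1R111G/+ gonads, against 123 to 213 CPM in Dmrt1+/- testes and 77.2 to 157 CPM in wild-type testes. In Dmrt1-/- gonads 5 of 5 macrophage genes were called higher against wild-type, where 26.1% of all genes were, and 2 of 5 against Dmrt1+/-, where 19.8% were. In Dmrt1R111G/+ gonads 5 of 5 were called higher against Dmrt1+/-, where 6.72% of all genes were. Endothelial markers summed to 250 to 288 CPM in Dmrt1-/- gonads and 48.0 to 77.5 CPM in Dmrt1R111G/+ gonads, against 28.4 to 38.1 CPM in Dmrt1+/- testes and 18.8 to 23.5 CPM in wild-type testes, with 4 of 4 called higher in Dmrt1-/- gonads against wild-type. The sums of Leydig, of myoid and stromal, and of erythroid markers were also higher in every Dmrt1-/- library than in every wild-type library. Of these lists 1 of 4, 3 of 5 and 2 of 3 genes were called higher, beside 26.1% of all genes. The Leydig genes did not move together. Cyp11a1 averaged 2046 CPM in Dmrt1-/- gonads against 212 CPM in wild-type testes, but Insl3 averaged 0.536 against 20.2 CPM. The erythroid marker Alas2 was also lower, at 2.80 against 4.69 CPM. Sertoli markers summed to 295 to 406 CPM in Dmrt1-/- gonads, which overlapped with 282 to 314 CPM in wild-type testes. Their sums were 511 to 694 CPM in Dmrt1R111G/+ gonads and 440 to 655 CPM in Dmrt1+/- testes. Sertoli genes did not move together, with Cst9 at 22.2 CPM in Dmrt1-/- gonads against 105 CPM in wild-type testes, and Wt1 at 112 against 52.1 CPM. The part of these shifts in the levels of the 5 genes was not tested.

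To ask whether the mutants alter the balance between the members, counts of each gene were divided by those of Prm1 in the same library. The Prm2 to Prm1 ratio was 0.853 ± 0.112 in Dmrt1-/- gonads, 0.965 ± 0.130 in Dmrt1R111G/+ gonads, 0.898 ± 0.220 in Dmrt1+/- testes and 0.988 ± 0.166 in wild-type testes (SD, n = 3 each). The Tnp1 to Prm1 ratio was 0.899 ± 0.261 in Dmrt1-/- gonads, 0.723 ± 0.128 in Dmrt1R111G/+ gonads, 0.709 ± 0.164 in Dmrt1+/- testes and 0.797 ± 0.129 in wild-type testes. The Tnp2 to Prm1 ratio was 0.701 ± 0.0624 in Dmrt1-/- gonads, 0.857 ± 0.110 in Dmrt1R111G/+ gonads, 0.786 ± 0.230 in Dmrt1+/- testes and 0.831 ± 0.112 in wild-type testes. Across a change of more than 2 orders of magnitude in level, the group means of these 3 ratios lay between 0.701 and 0.988.

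In Dmrt1R111G/+ gonads Prm3 shifted the most among these ratios, without passing a test. Its ratio to Prm1 was 0.0889 ± 0.0322 in Dmrt1R111G/+ gonads, against 0.0597 ± 0.0219 in Dmrt1+/- testes and 0.0549 ± 0.0144 in wild-type testes (SD, n = 3 each). The log2 difference was 0.65 against wild-type (two-sided exact permutation p = 0.2) and 0.56 against Dmrt1+/- (exact p = 0.3). The Dmrt1-/- libraries had too few Prm3 counts for a ratio. Dmrt1R111G/+ and Dmrt1-/- gonads did not overlap in the Tnp2 to Prm1 ratio, at 0.783 to 0.983 against 0.632 to 0.754. The log2 difference was 0.29 (two-sided exact permutation p = 0.1, the smallest value that 3 libraries against 3 allow). Of 21 comparisons of ratios at P28, 0 passed an adjusted p of 0.05, with adjusted p between 0.884 and 1, which 3 libraries against 3 could not have reached in any case.

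**Figure D4:**
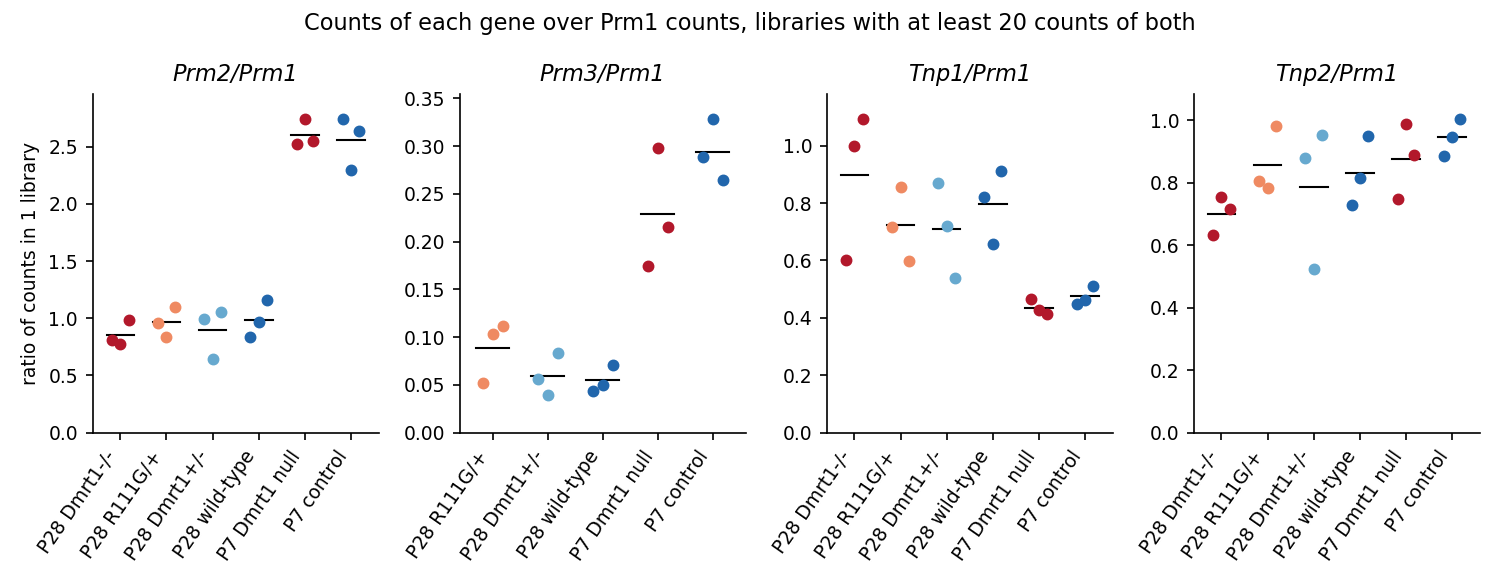
Counts of Prm2, Prm3, Tnp1 and Tnp2 divided by Prm1 counts in the same library, for libraries with at least 20 counts of both genes; points are libraries and bars are group means. At P28 the genotypes shown overlap, except that Tnp2 relative to Prm1 is higher in every Dmrt1R111G/+ library than in every Dmrt1-/- library. Dmrt1-/- gonads are not shown for Prm3. In both groups of P7 Sertoli cell libraries Prm2 and Prm3 are higher and Tnp1 is lower relative to Prm1.

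At P3, before meiosis has begun in the testis, the genes were silent to the depth reached. Prm1, Prm3 and Tnp2 had 0 counts in all 12 libraries, and Prm2 had 1 count in 1 Dmrt1-/- library. Tnp1 was the exception, with 12 counts over the 3 Dmrt1-/- libraries, 10 over Dmrt1R111G/-, 6 over Dmrt1R111G/+ and 6 over Dmrt1+/-. The limit that 0 counts allow, taken as 3 counts over a group, was 0.123 CPM in Dmrt1-/-, 0.128 CPM in Dmrt1R111G/-, 0.113 CPM in Dmrt1R111G/+ and 0.134 CPM in Dmrt1+/- gonads. These limits cover counting error only. All 5 genes failed the filter on low counts at P3 and were not tested in the 4 comparisons there, in which edgeR called 0.511% of 15837 genes for Dmrt1-/- against Dmrt1+/-, 0.133% for Dmrt1R111G/+ against Dmrt1+/-, 0.196% for Dmrt1R111G/- against Dmrt1+/- and 0.177% for Dmrt1R111G/- against Dmrt1-/-. With the filter left off, 0 of 5 were called.

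Between P3 and P28 the 5 mRNAs appeared in Dmrt1+/- gonads on a scale that can only be bounded. Prm1 was at least 19736-fold higher at P28 in Dmrt1+/- gonads, Prm2 at least 15970-fold, Tnp2 at least 13679-fold and Prm3 at least 980-fold. Tnp1, with its 6 counts at P3, was 7472-fold higher (95% counting interval 3433 to 20362). Without Dmrt1+/- P28 replicate 3 the bounds were 26395-fold for Prm1, 20705-fold for Prm2, 17599-fold for Tnp2 and 1221-fold for Prm3, with Tnp1 at 10283-fold. All 5 were called higher at P28, as were 35.7% of 21696 genes, but they passed the filter on low counts only through libraries at P7 or P28. In Dmrt1R111G/+ gonads all 5 were also called higher, where 27.4% of genes were, and the bounds were at least 1008-fold for Prm1, 965-fold for Prm2, 861-fold for Tnp2 and 91.2-fold for Prm3, with Tnp1 at 368-fold (169 to 1005).

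In Dmrt1-/- gonads 4 of 5 genes were called higher at P28 than at P3, among 10.9% of all genes. These genes also passed the filter on low counts only through libraries at P7 or P28. With levels at or near 0 at P3, a call could hardly have pointed lower. Prm1 was at least 49.5-fold higher, Tnp2 at least 34.6-fold, and Tnp1 10.9-fold (6.06 to 21.5). Prm2 was 126-fold higher with an interval of 22.2 to 4999, since it rests on 1 count at P3. Prm3 was the member without a call, at 6 counts at P28 against 0 counts at P3 (edgeR adjusted p = 0.170). Age and any difference in how the P3 and P28 libraries were made cannot be told apart. The levels of the 5 genes in P28 Dmrt1-/- libraries were all near the same small fraction of wild-type, and the source of these counts was not tested.

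Whether the genotype effect itself changes with age could be asked only of Tnp1, the gene with P3 counts in every group. It passed the filter through its P28 levels, and with 12 counts in Dmrt1-/- and 6 in Dmrt1+/- gonads at P3 the contrast largely restates its P28 difference. For Tnp1 the Dmrt1-/- against Dmrt1+/- difference was more negative at P28 than at P3, with -9.61 ± 1.68 on the log2 scale for P28 minus P3 (SE, edgeR adjusted p = 3.36e-05), a call made in this direction for 23.1% of all genes. Tnp1 ranged between -10.35, without Dmrt1+/- P3 replicate 2, and -8.80, without Dmrt1+/- P28 replicate 2, when single libraries were left out. The corresponding value of Tnp1 for Dmrt1R111G/+ against Dmrt1+/- was -4.73 ± 1.87 (edgeR adjusted p = 0.0757, unadjusted p = 0.0178). This was not a call, and 9.24% of all genes were called lower there. DESeq2 called Tnp1 at -4.77, where it called 2366 of 21696 genes lower. Without Dmrt1+/- P28 replicate 3, edgeR called Tnp1 at -5.12. For the other genes edgeR's standard errors were 14060 or more in this contrast, so it could not have called them. Prm2 had 1 count over the P3 libraries of all groups together, in Dmrt1-/- gonads. Its Dmrt1-/- against Dmrt1+/- contrast, -10.79 ± 4.54 (SE, edgeR adjusted p = 0.0540), was not a call and rests on that count. Prm1, Prm3 and Tnp2 had 0 counts at P3, so no contrast is given for them.

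Sertoli cells isolated at P7 offered a setting in which spermatids are not yet formed and Dmrt1 is deleted in the somatic cell. The 5 mRNAs were nevertheless counted in all 6 libraries. Prm2 was the highest, with 63.0, 88.6 and 87.0 CPM in null cells, against 69.8, 57.5 and 64.7 CPM in control cells. Prm1 had 25.0, 32.3 and 34.1 CPM in null cells, against 25.4, 25.1 and 24.5 CPM in control cells. Both protamines were higher in 2 of the 3 null libraries than in any control library and overlapped through null replicate 1.

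Tnp2 had 18.7, 31.9 and 30.3 CPM in null cells, against 22.5, 23.7 and 24.7 CPM in control cells. Tnp1 had 11.6, 13.8 and 14.1 CPM in null cells, against 11.4, 11.6 and 12.6 CPM in control cells. Prm3 had 4.35, 9.64 and 7.34 CPM in null cells, against 7.33, 8.24 and 6.50 CPM in control cells. All 5 genes overlapped between the groups.

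In edgeR 0 of 5 genes were called between null and control cells, whereas 4.56% of 14013 genes were. None had an unadjusted p under 0.05, and DESeq2 also called 0. The log2 fold changes were 0.33 ± 0.20 for Prm1 (SE, edgeR adjusted p = 0.377), 0.36 ± 0.18 for Prm2 (0.296), -0.02 ± 0.37 for Prm3 (0.985), 0.19 ± 0.24 for Tnp1 (0.680) and 0.23 ± 0.25 for Tnp2 (0.632). When scaling used only the macrophage, endothelial, myoid and stromal markers, which are scarce in these cells, the values were -1.38 for Prm1, -1.43 for Prm2, -1.78 for Prm3, -1.49 for Tnp1 and -1.52 for Tnp2, still without a call.

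**Figure D5:**
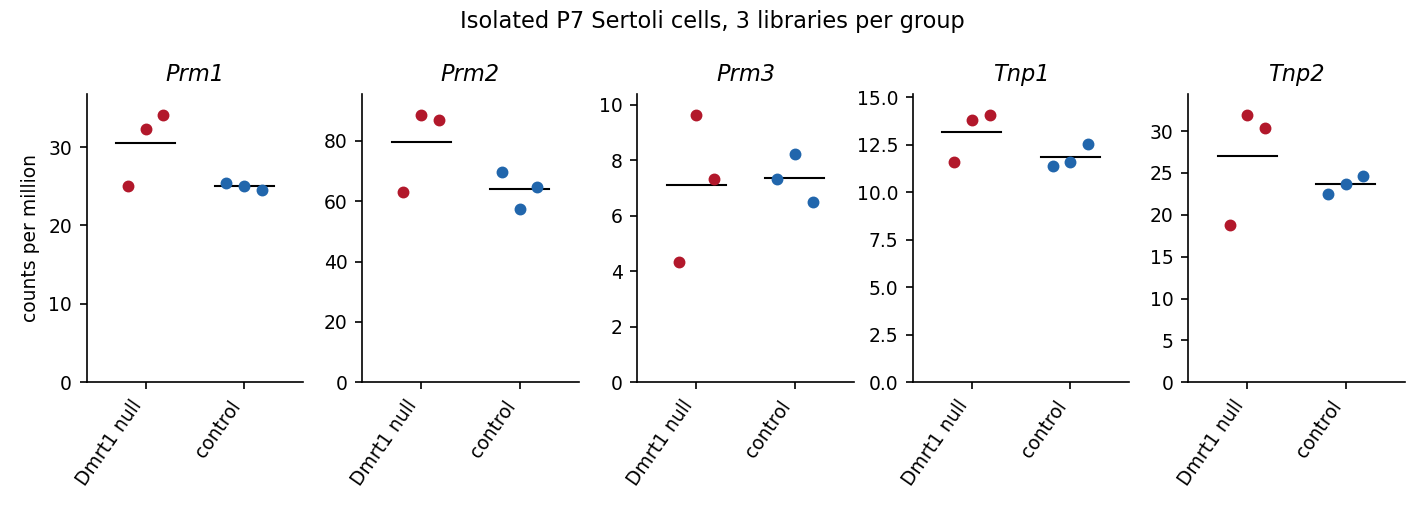
Level of the 5 genes in Sertoli cells isolated at P7, in CPM; points are libraries, 3 per group, and bars are group means. Null and control libraries overlap in every panel, and Prm2 is highest at 57.5 to 88.6 CPM.

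The P7 libraries had a different composition from the P28 gonads. The Prm2 to Prm1 ratio was 2.61 ± 0.120 in null cells and 2.56 ± 0.236 in control cells, and at P28 no library exceeded 1.16. The Prm3 to Prm1 ratio was 0.229 ± 0.0632 in null cells and 0.294 ± 0.0323 in control cells, and the Tnp1 to Prm1 ratio was 0.435 ± 0.0266 in null cells and 0.474 ± 0.0336 in control cells (SD, n = 3 each). As a share of the P28 wild-type mean, Prm3 stood at 4.58% in null and 4.74% in control cells, Prm2 at 2.83% and 2.27%, Tnp2 at 1.14% and 0.994%, Prm1 at 1.05% and 0.859%, and Tnp1 at 0.567% and 0.511%.

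Spermatid markers were low in the same libraries. The 17 round and elongating markers had a median of 0.662% of P28 wild-type in null cells (0.173% to 7.15%) and 0.510% in control cells (0.104% to 5.70%). Akap4 averaged 4.92 CPM in null cells and 5.53 CPM in control cells, Acrv1, an acrosomal gene, 0.722 and 0.225 CPM, and Odf2 89.9 and 71.7 CPM. In these libraries the 5 genes summed to 123 to 176 CPM in null cells and 126 to 136 CPM in control cells. Age, tissue and preparation differ between these libraries and the P28 gonads and cannot be told apart; the source of the counts was not tested.

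For each gene the order of the groups was the same at its upper end. For Prm1 the wild-type mean of 2910 CPM and the Dmrt1+/- mean of 2672 CPM did not differ beyond their spread, and were followed by Dmrt1R111G/+ gonads (114 CPM), P7 null cells (30.5 CPM), P7 control cells (25.0 CPM), P28 Dmrt1-/- gonads (6.21 CPM) and the P3 groups at 0. The P7 groups stood above P28 Dmrt1-/- gonads in every library for all 5 genes. For Prm3 the Dmrt1R111G/+ range of 6.20 to 12.1 CPM overlapped with both P7 groups, while for the other 4 genes it lay above them.

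The wider machinery of histone replacement was read from lists of genes. Testis histone variants, the linker and core histones that spermatids use before and during the exchange, were lower in both mutants: against wild-type testes 7 of 7 were called lower in Dmrt1-/- gonads, where 40.5% of all genes were, and 7 of 7 in Dmrt1R111G/+ gonads against Dmrt1+/- testes, where 28.1% were. In Dmrt1R111G/+ gonads their median level was 8.76% of wild-type (4.78% to 47.5%). Hils1, a linker histone of elongating spermatids, was at 8.76%, the linker histone H1f7 at 5.60%, H2bl1 at 5.85% and H2al2a, an H2A variant that acts together with the transition proteins, at 4.78%. Their log2 fold changes against Dmrt1+/- testes were -3.48 for Hils1, -4.05 for H1f7, -4.24 for H2bl1 and -4.61 for H2al2a, beside -4.95 to -4.03 for the 5 genes. Without Dmrt1+/- replicate 3 they were -3.78 for Hils1, -4.41 for H1f7, -4.61 for H2bl1 and -5.04 for H2al2a.

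Factors that remove histones or prepare protamines changed less uniformly. Against wild-type testes 13 of 16 were called lower in Dmrt1-/- gonads, as were 10 of 16 in Dmrt1R111G/+ gonads against Dmrt1+/- testes, beside 40.5% and 28.1% of all genes, with 0 of the list higher in either. Against Dmrt1+/- testes the log2 fold change was -1.47 for Hspa2, a chaperone of transition proteins, -1.68 for Psme4, a proteasome activator that acts on acetylated histones, -1.04 for Srpk1, a kinase of protamine 1, and -3.16 for the chromatin remodeller Chd5. The median over the list was -1.30, and -1.49 without Dmrt1+/- replicate 3, where 11 were called. Most of these genes are also used outside spermatids, and in Dmrt1-/- gonads the list kept a median of 22.2% of wild-type.

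Genes for transcription in spermatids and for storage of their mRNAs also fell. Against wild-type testes 15 of 15 were called lower in Dmrt1-/- gonads, as were 15 of 15 in Dmrt1R111G/+ gonads against Dmrt1+/- testes, beside 40.5% and 28.1% of all genes. The list's median log2 fold change in Dmrt1R111G/+ gonads was -1.90 (-2.05 without Dmrt1+/- replicate 3), against -4.62 for the 5 genes. Crem, the activator named above, kept 30.1% of its wild-type level in Dmrt1R111G/+ gonads and 21.0% in Dmrt1-/- gonads, and its counts do not separate the activator from other isoforms. Papolb, a poly(A) polymerase of the testis, kept 15.1% in Dmrt1R111G/+ gonads, Tdrd6, a chromatoid body gene, 19.5%, Ybx2, which binds stored mRNAs such as those of protamines, 22.4%, and Ybx1 39.5%. At P7, edgeR called 0 of the 2 histone variants, 0 of the 15 histone removal genes and 0 of the 14 transcription and storage genes that passed the filter, beside 4.56% of all genes.

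Within 100 kb of the chromosome 16 cluster, 8 other annotated genes were in the table, and they did not all follow the members. Socs1, a cytokine signalling inhibitor next to Tnp2, changed by 0.64 on the log2 scale in Dmrt1-/- gonads against wild-type (edgeR adjusted p = 0.102) and by 0.03 in Dmrt1R111G/+ gonads against Dmrt1+/- (0.945). Clec16a, a gene with a role in mitophagy, changed by -0.74 in Dmrt1-/- gonads (edgeR adjusted p = 0.00820), short of 2-fold, and by -0.51 in Dmrt1R111G/+ gonads (0.0741). Rmi2, a subunit of the BLM helicase complex, was called lower in Dmrt1-/- gonads at -1.17 (edgeR adjusted p = 0.00537) but not in Dmrt1R111G/+ gonads at -0.55 (0.166). Gm11172, Gm26822 and Gm49960 had 6 counts or fewer in every P28 library.

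The remaining neighbours overlap the annotated span of Prm1. Gm46563, annotated antisense to it, averaged 0.0292 CPM in Dmrt1-/- gonads and 1.32 CPM in Dmrt1R111G/+ gonads, against 5.72 CPM in Dmrt1+/- testes and 6.16 CPM in wild-type testes. The pseudogene Gm10343 averaged 0.277 CPM in Dmrt1-/- gonads and 1.56 CPM in Dmrt1R111G/+ gonads, against 3.41 CPM in Dmrt1+/- testes and 7.13 CPM in wild-type testes. At Tnp1 the antisense gene 1700027A15Rik averaged 0.339 CPM in Dmrt1-/- gonads and 6.34 CPM in Dmrt1R111G/+ gonads, against 158 CPM in Dmrt1+/- testes and 188 CPM in wild-type testes. Its log2 fold changes, -9.39 in Dmrt1-/- gonads against wild-type and -4.99 in Dmrt1R111G/+ gonads against Dmrt1+/-, were close to the -9.07 and -4.95 of Tnp1. Without Dmrt1+/- replicate 3 the second value was -5.49 for 1700027A15Rik. Reads had been counted by strand.

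Across the 12 P28 libraries the log2 levels of any pair of the 5 genes correlated with Pearson's r between 0.993 and 1.00, and across the 6 Dmrt1+/- and wild-type testes between 0.943 and 0.997. The libraries fall into genotype groups and share their scaling, so these are descriptions. The genes most like the mean of the 5 over all 12 libraries were Cabs1 (r = 0.999), Rnf133, 1700092M07Rik, H2al3 and Ccdc54, and 278 of 14048 genes had an r above 0.99. Over the 6 testes they were Spata19 (r = 0.999), 1700019M22Rik, 1700120C18Rik, Gm11780 and Hmgb4, with 65 of 13856 genes above 0.99. The levels of these 10 genes in Dmrt1R111G/+ gonads were 4.32% to 13.8% of wild-type.

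Hi-C of P7 Dmrt1-/- Sertoli cells gave 4291 listed interactions between 10 kb anchors, without a score or count. Of these, 2 had an anchor at the gene cluster, both at chr16:10780001-10790000, the window that holds Tnp2. Their other anchors were chr16:10660001-10670000 and chr16:10560001-10570000, at distances of 120 and 220 kb and both inside Clec16a. With a margin of 10 kb this anchor lay next to Prm1, Prm2, Prm3 and Tnp2, whereas by overlap with the gene body it touched 1 of the 5 genes, and Tnp1 had none. An anchor lay within 10 kb of 26.9% of 21897 protein-coding genes. No Hi-C of control cells was analysed here, so no comparison was made.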

How the data were processed

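Stranded mRNA libraries were trimmed by the authors (Trim Galore 0.6.0, cutadapt 1.18), aligned with STAR 2.7.2a to the mouse build GRCm38 (mm10), and assigned to GENCODE M25 genes by strand. What the authors deposited is 1 table of raw counts, 55401 genes by 30 libraries, in which 0 columns were unassigned. Positions came from GENCODE M21 on that build, which held 55141 (99.5%) of the gene IDs, and promoter letters from RefSeq (GRCm38.p6). The deposited Hi-C list pools 2 replicates of P7 Dmrt1-/- Sertoli cells and was used for its anchor positions only; per the labels its reads were mapped with HiC-Pro 3.1.0. ChIP-seq was not analysed here.

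Tests used the quasi-likelihood F test of edgeR 4.0.16 (limma 3.58.1, R 4.3.3) on the counts as deposited, after filterByExpr and scaling by trimmed mean of M values (TMM). Each age had its own fit, and ages were compared in 1 fit of all 30 libraries. P-values were adjusted by Benjamini-Hochberg over all genes fitted. A call needed an adjusted p under 0.05 and more than a 2-fold change. Standard errors were calculated back from the fold change and F. Levels are CPM by library total, so their ratios can differ slightly from TMM-scaled folds. Library totals ranged between 5043838 and 12792811 counts. Folds against groups without counts were bounded with 3 counts over the group. Tables were made in Python 3.11.15 with pandas 2.3.3 and SciPy 1.17.1, and the fits were tested on simulated data.

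The members and gene lists were chosen with earlier results of these data known. Beside the 5 members, the genes named are Dmrt1, up to 4 genes of each list with the highest level in wild-type P28 testes, the genes within 100 kb of the cluster, and the 5 genes whose levels correlated best with the members in each of 2 sets of libraries. Crem, Tsnaxip1, Esr2, Sycp3 and Hormad1 fall outside this rule and were added after their values were seen. Alternatives were other scaling factors, DESeq2 1.42.0, no filter on low counts, only the groups compared, each replicate left out, and the replicate number as a block.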

Additional observations from a re-analysis of the deposited data

Results flagged for a closer look

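For Tnp1 the test of whether the difference between Dmrt1-/- and Dmrt1+/- gonads changes with age passed the threshold, at -9.61 ± 1.68 on the log2 scale for P28 minus P3 (SE, edgeR quasi-likelihood adjusted p = 3.36e-05). Tnp1 averaged 5.34 ± 0.905 CPM in Dmrt1-/- gonads and 2007 ± 1490 CPM in Dmrt1+/- testes at P28, and 0.495 ± 0.140 CPM in Dmrt1-/- and 0.278 ± 0.275 CPM in Dmrt1+/- gonads at P3 (SD, n = 3 each). The P3 values rest on 12 counts in Dmrt1-/- and 6 counts in Dmrt1+/- gonads, and Tnp1 entered this fit through its P28 levels, so the test largely restates the P28 difference. When single libraries were left out the value ranged between -10.35 and -8.80.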

How the results depend on the processing

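In each of the 5 comparisons of P28 mutants, all 65 refits of the 5 genes kept the call and the direction. The log2 fold changes ran between -12.46 and -8.76 for Dmrt1-/- against wild-type, -11.47 and -8.17 for Dmrt1-/- against Dmrt1+/-, -5.97 and -3.63 for Dmrt1R111G/+ against Dmrt1+/-, -6.88 and -3.94 for Dmrt1R111G/+ against wild-type, and 3.67 and 6.49 for Dmrt1R111G/+ against Dmrt1-/- gonads. The largest change in each came from scaling by macrophage, endothelial, myoid and stromal (somatic) markers. That scaling shifted the median of all genes to -2.99 in Dmrt1-/- gonads against wild-type, where TMM factors gave -0.31 and library size alone 0.01. It left 318 genes higher and 17306 lower there, against 5472 and 8476 with TMM, while library size alone gave 6190 higher and 5913 lower for Dmrt1R111G/+ against wild-type, against 3792 and 7149 with TMM.

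For the age difference of Dmrt1-/- against Dmrt1+/-, 2 genes were called with library size alone, with somatic markers and without a filter, 5 with DESeq2, and 1 to 2 when single replicates were left out. For Dmrt1R111G/+ against Dmrt1+/-, 1 gene was called with somatic markers and without a filter, 4 with DESeq2, and 0 to 1 when single replicates were left out. These counts rest on genes at or near 0 at P3. Leaving out single replicates in Dmrt1+/- against wild-type gave -0.92 to 0.24 for Prm1, -0.72 to 0.0128 for Prm3 and -0.91 to 0.20 for Tnp1, and -1.01 to 0.15 for the summed share. In P7 cells somatic marker scaling gave -1.38 for Prm1, -1.43 for Prm2, -1.78 for Prm3, -1.49 for Tnp1 and -1.52 for Tnp2, and single replicates left out gave -0.32 to 0.24 for Prm3. Prm3 in Dmrt1-/- gonads was called between ages without a filter, at 3.92. In Dmrt1+/- against wild-type, 270 genes were called without a filter and 33 with DESeq2, against 0. By overlap with the gene body, 1 gene met a Hi-C anchor. The cause of these changes was not tested. With 2 alternatives chosen after seeing the data, leaving out Odf2 moved the mean quotient of the 5 genes to spermatid markers to 1.38 in Dmrt1-/- gonads, 1.03 in Dmrt1R111G/+ gonads and 1.55 in wild-type testes, while leaving Dmrt1+/- replicate 3 out of the 3 list counts gave 7, 11 and 15 lower in Dmrt1R111G/+ gonads.

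Replicate numbers did not pair the libraries. The correlation of deviations between same-numbered libraries was -0.394 to 0.355 over 18 pairs at P28, -0.287 to 0.241 over 18 pairs at P3 and -0.0371 to 0.505 over 3 pairs at P7. With the replicate block the log2 fold changes of Dmrt1R111G/+ against Dmrt1+/- were -4.66 for Prm1, -4.49 for Prm2, -3.99 for Prm3, -4.74 for Tnp1 and -4.42 for Tnp2, and the block changed no call of the 5 genes. Depth limits the P3 values, which rest on at most 12 counts over a group, and Prm3 in P28 Dmrt1-/- gonads, with 6 counts over the group.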
